A study of Mus musculus with 272 samples.

Results

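The fibroblast growth factor (FGF) genes described here are 34 mouse genes with 3 roles: 22 Fgf ligand genes, 5 receptor genes, and 7 Sprouty and Spred genes, which encode feedback inhibitors. The ligands comprise 15 secreted paracrine ligands, 3 endocrine ligands and 4 intracellular FGF homologous factors. All 34 were chosen by gene name from the 22015 protein-coding genes of GENCODE M21 on mm10, by a rule that uses no measured value, but with earlier results of these data known. Secreted FGFs bind receptor tyrosine kinases together with heparan sulfate, and the receptors pass the signal to the RAS-MAPK pathway. Sprouty and Spred proteins damp this pathway, and Sprouty genes are induced by it. In muscle stem cells (MuSCs), the Pax7-expressing cells that repair muscle, FGF2 is known as a mitogen and Sprouty1 as a brake on FGF signalling in resting cells.

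The study followed the outcomes of Cas9 cutting in MuSCs in vivo, and its series holds 272 samples. The 8 libraries used here were peak lists of ATAC-seq, which finds open chromatin, and of ChIP-seq for H3K4me3, H3K27ac and H3K27me3, with 2 replicates each. All 8 came from GFP+ cells sorted from hindlimb muscle of Pax7Cas9 mice, in which Pax7-driven Cre switches on a Cas9 knock-in allele, so Cas9 is common to every library and no library without it was compared. Age, strain background and any virus treatment of the animals behind these 8 libraries are not given in the sources used here, nor whether the 2 replicates came from separate animals. H3K4me3 marks promoters, H3K27ac marks active promoters and enhancers, and H3K27me3 is laid down by Polycomb complexes at silenced developmental genes. RNA was not measured in these lists, so every value below is about chromatin.

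The lists held 140937 and 94574 ATAC-seq peaks, 20519 and 18006 H3K4me3 peaks, 24217 and 18589 H3K27ac peaks, and 6080 and 10485 H3K27me3 peaks in replicates 1 and 2. The H3K27me3 lists reached down to a lower confidence than the others: 52.7% and 61.5% of their peaks had a q-value of at most 0.05, against 100% in the other lists. Values below are the authors' fold enrichment at the summit of the strongest peak within 3.0 kb of any annotated transcription start site (TSS) of a gene, replicate 1 first. The lists hold no read numbers, so the sequencing depth is unknown. The strongest peaks of the 2 replicates may lie at different positions, and a call in both replicates does not require overlapping peaks. A gene without a listed peak counted as unmarked. Of 12 MuSC marker genes, *Pax7* and *Myf5* among them, 12 had an H3K4me3 promoter peak in both replicates, beside 60.6% of all protein-coding genes. H3K27ac was at 11 of them, beside 46.5%. All markers were chosen with earlier results of these data known, so their counts describe the lists and do not test the identity of the cells. Of 10 markers each of fibro-adipogenic cells, endothelial cells and myofibres, H3K27ac was at the promoters of 3, 1 and 3 in both replicates. H3K4me3 was at 5 in each list, beside 60.6% of all genes, and ATAC-seq peaks at 6, 8 and 9, beside 67.6%. The H3K4me3 and ATAC-seq counts are thus not far from those of genes at large and neither show nor exclude other cells. What other cells gave to the values below was not tested, and a bulk list cannot tell a mark in few cells from a weak mark in all of them.

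Most receptor and feedback inhibitor genes carried active promoter marks, whereas few ligand genes did. H3K27ac was found at promoters in both replicates for 4 of 5 receptors (80%), 5 of 7 feedback inhibitors (71.4%) and 5 of 22 ligands (22.7%), beside 46.5% of all protein-coding genes. The receptor count includes *Fgfr2*, whose H3K27ac lay at a start site within *Ctbp2*. When a peak counted only for the nearest TSS, 3 receptors, 5 feedback inhibitors and 3 ligands kept H3K27ac, beside 40.3% of all genes. H3K27me3 ran the other way, with 7 of 22 ligands (31.8%), 1 receptor and 0 feedback inhibitors, beside 4.79% of all genes. H3K4me3 was found at all 5 receptors, 6 feedback inhibitors and 12 ligands (54.5%), beside 60.6% of all genes. Open chromatin was the least selective feature, with 17 ligands, 5 receptors and 6 feedback inhibitors beside 67.6% of all genes. The roles hold few genes, and no test was made between roles.

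**Figure D1:**
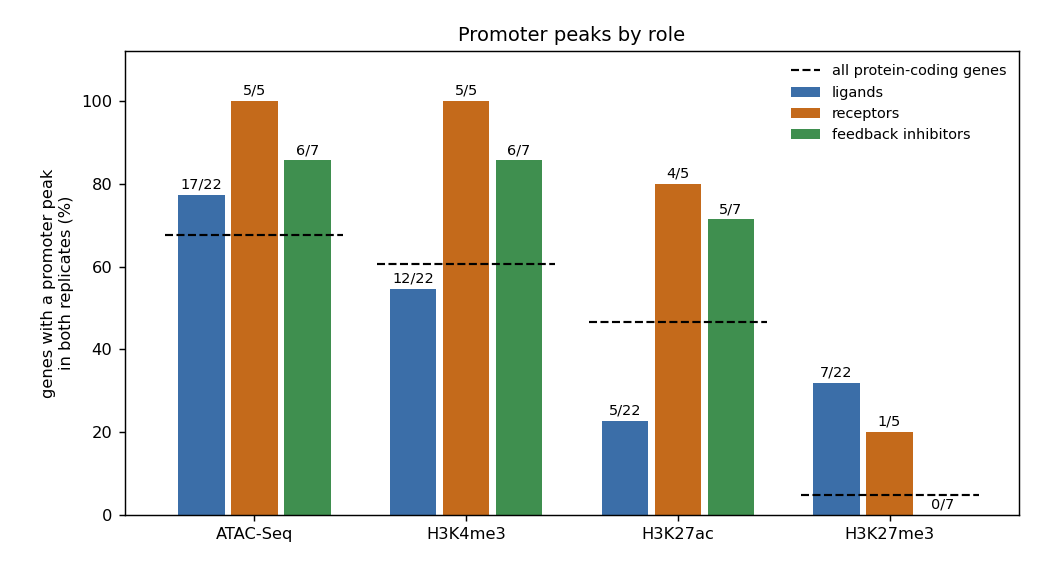
Percent of the genes of each role (vertical axis) with a promoter peak in both replicates, for each of the 4 features; the numbers above the bars are genes marked of genes in the role, and dashed lines give the level over all protein-coding genes. Ligands lie below the H3K27ac line with 5 of 22 genes and above the H3K27me3 line with 7 of 22. The H3K27ac bar of the receptors includes *Fgfr2*, whose peak lay at a start site within *Ctbp2*.

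By the marks found in both replicates, 12 members had H3K4me3 with H3K27ac, beside 45.3% of all genes, namely *Fgf2*, *Fgf11*, *Fgf13*, *Fgf16*, *Fgfr1*, *Fgfr4*, *Fgfrl1*, *Spry1*, *Spry2*, *Spry4*, *Spred1* and *Spred2*. H3K4me3 with H3K27me3, the combination called bivalent, was found at *Fgf5*, *Fgf8*, *Fgf9* and *Fgf15*, or 4 members beside 3.05% of all genes. *Fgf3* and *Fgf4* had H3K27me3 without H3K4me3, a state of 0.954% of all genes. *Fgf20* and *Fgfr2* were listed with all 3 marks, as were 0.786% of all genes, but in both genes H3K27ac and H3K27me3 lay at different start sites, as described below. H3K4me3 alone was found at 5 members (*Fgf10*, *Fgf12*, *Fgf18*, *Fgfr3* and *Spred3*), beside 11.5% of all genes. ATAC-seq peaks without any of the histone marks were found at 5 members (*Fgf1*, *Fgf7*, *Fgf21*, *Fgf22* and *Fgf23*), beside 6.89%. *Fgf6*, *Fgf14*, *Fgf17* and *Spry3* had no promoter peak shared by both replicates, beside 31.2% of all genes.

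**Figure D2:**
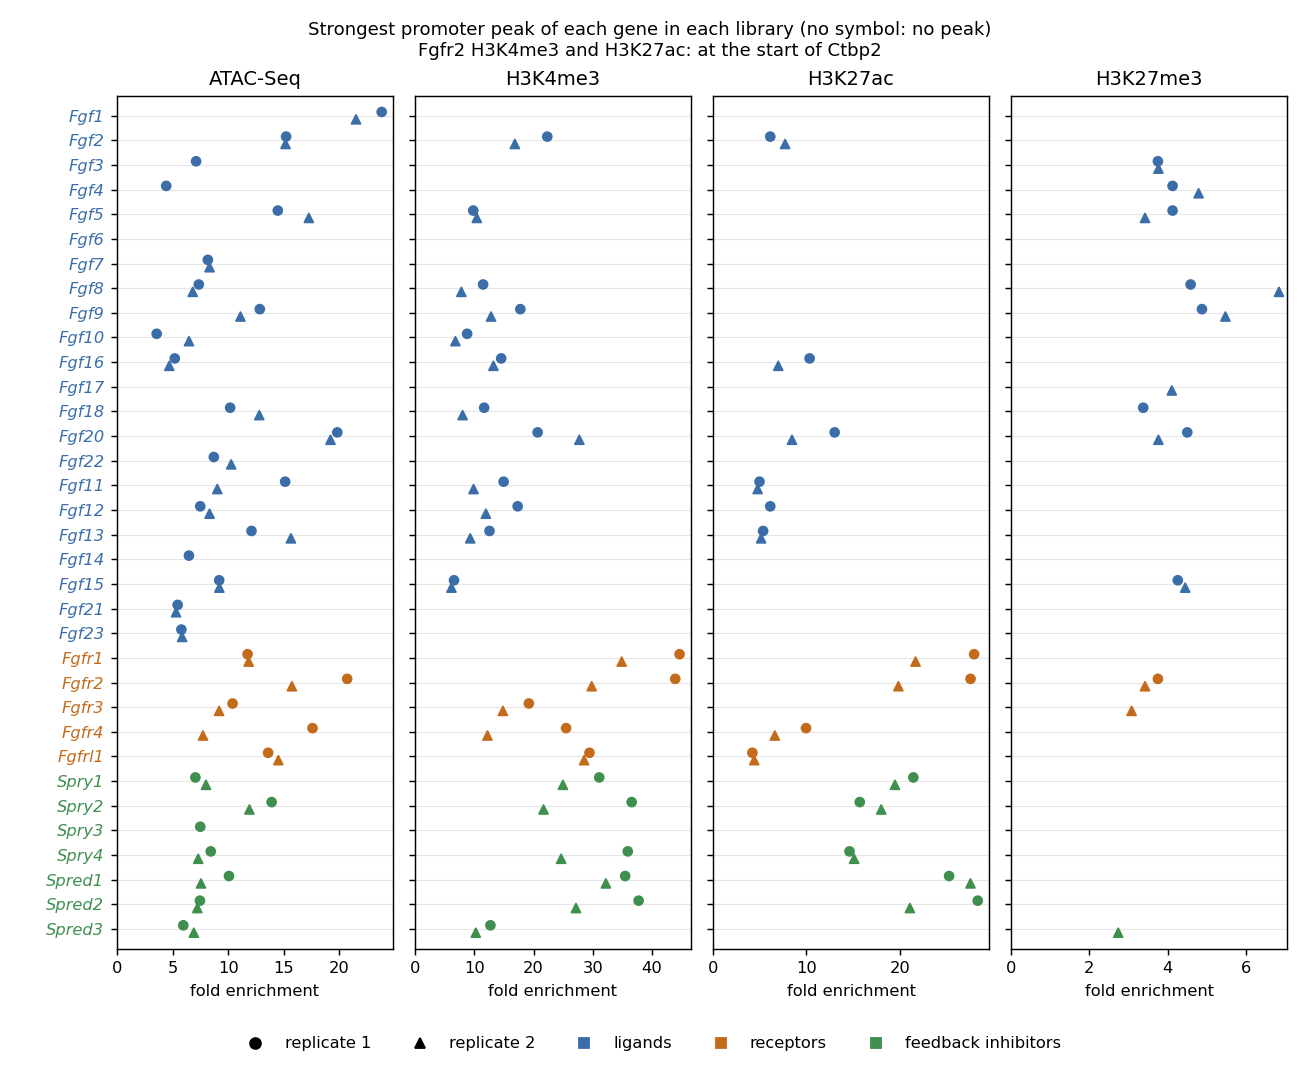
Fold enrichment (horizontal axes) of the strongest promoter peak of each of the 34 genes in the 8 libraries; circles are replicate 1, triangles replicate 2, colours give the role, and a missing symbol means no peak. The feedback inhibitors with H3K27ac lie between 14.6 and 28.4, and the ligands with H3K27ac at or below 13.03; the H3K4me3 and H3K27ac values of *Fgfr2* belong to a start site within *Ctbp2*.

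Among the feedback inhibitors, *Spred1* and *Spred2*, which hold RAF kinase activation in check at the membrane, had the strongest promoter H3K27ac. *Spred1* reached 25.3-fold and 27.6-fold, and *Spred2* reached 28.4-fold and 21.1-fold. *Spry1*, the Sprouty gene linked to MuSC quiescence, had 21.5-fold and 19.5-fold H3K27ac. *Spry2* had 15.7-fold and 18.02-fold, and *Spry4* had 14.6-fold and 15.1-fold. These 5 genes lay above the highest ligand in each replicate, which was *Fgf20* with 13.03-fold and 8.46-fold. The median of the marked feedback inhibitors was 21.5-fold and 19.5-fold, beside 13.9-fold and 11.95-fold over all genes with an H3K27ac promoter peak and 6.13-fold and 6.99-fold over the marked ligands.

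The H3K4me3 domains of *Spry1* and *Spry2* were among the broadest in the lists. The strongest *Spry2* peak spanned 7116 bp and 6405 bp, and that of *Spry1* spanned 6842 bp and 5256 bp. In both replicates these widths were at the 99.6th percentile or above among the strongest promoter peaks of all genes with H3K4me3 (*Spry1* 99.6 and 99.7, *Spry2* 99.7 and 99.9). Their height was less unusual, with 31.1-fold and 24.95-fold at *Spry1* and 36.6-fold and 21.7-fold at *Spry2*. *Spred1* had 35.5-fold and 32.2-fold H3K4me3 over 4532 bp and 4108 bp, *Spred2* had 37.7-fold and 27.2-fold, and *Spry4* had 35.9-fold and 24.7-fold. Feedback inhibitors with H3K4me3 had a median of 35.7-fold and 24.8-fold, beside 23.9-fold and 17.6-fold over all genes with H3K4me3.

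**Figure D3:**
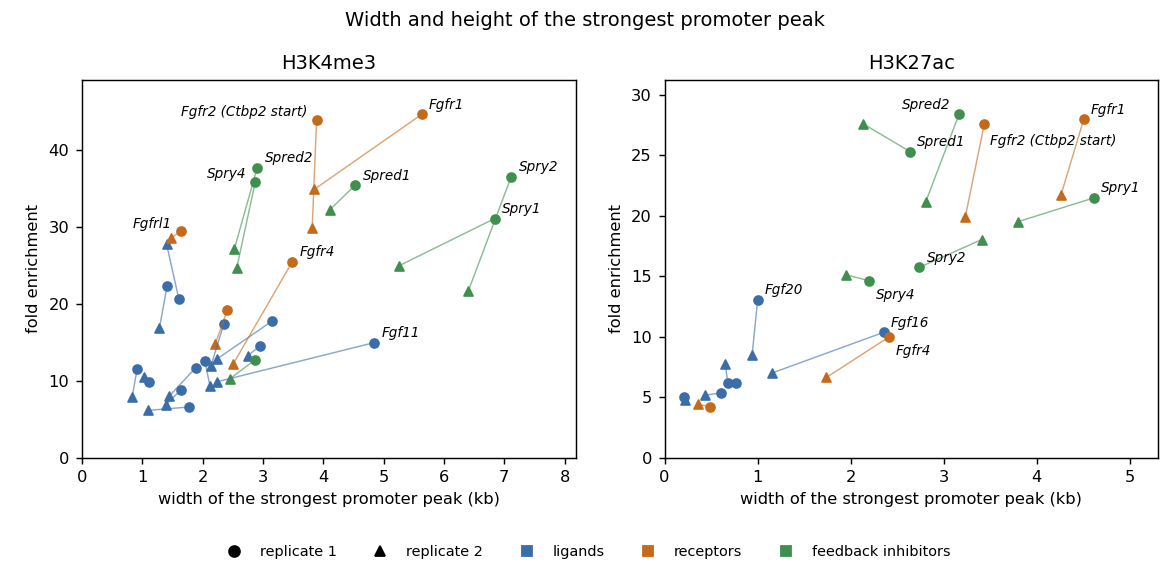
Width in kb (horizontal axis) and fold enrichment (vertical axis) of the strongest promoter peak for H3K4me3 (left) and H3K27ac (right); circles are replicate 1, triangles replicate 2, and a line joins the replicates of one gene. *Spry1*, *Spry2* and *Fgfr1* combine high and broad peaks, up to 7116 bp for H3K4me3 at *Spry2*, whereas most ligands lie at the lower left.

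Open chromatin did not follow the same order. The ATAC-seq peaks of the same genes were modest, with 7.05-fold and 8.00-fold at *Spry1*, 7.46-fold and 7.23-fold at *Spred2*, and 8.43-fold and 7.30-fold at *Spry4*. Among all genes with an ATAC-seq promoter peak, *Spry1* stood at percentile 12.2 and 20.2, while its H3K27ac stood at percentile 75.1 and 80.7. *Spred2* stood at percentile 14.01 and 15.5 for ATAC-seq, and 88.8 and 84.5 for H3K27ac. Several ATAC-seq peaks were listed at *Spry1* and *Spry2*, 6 and 7 at each, but *Fgf1*, with the highest promoter fold of the members, had 6 and 6. Whether the number of peaks bears on their height was not tested. *Spry2* had the highest ATAC-seq fold of the feedback inhibitors, 13.9 and 11.9.

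The remaining feedback inhibitors had weaker or no marks. *Spred3*, a Spred family member, had H3K4me3 of 12.7-fold and 10.3-fold without H3K27ac. The summit of that peak lay nearest to a TSS of *Ggn*, whose promoter shares the window, so the mark cannot be assigned to either gene. An H3K27me3 peak of 2.74-fold at *Spred3* was listed in replicate 2 alone. *Spry3* had an ATAC-seq peak of 7.49-fold in replicate 1 and no other promoter peak.

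*Fgfr1*, the receptor tyrosine kinase known as the main FGF receptor of MuSCs, had the strongest receptor promoter. Its H3K27ac reached 27.98-fold and 21.7-fold over 4507 bp and 4261 bp, widths at percentile 99.5 and 99.7 among marked genes. Its H3K4me3 reached 44.6-fold and 34.9-fold, at percentile 96.5 and 97.3, over 5631 bp and 3850 bp. A second group of *Fgfr1* start sites further downstream was marked as well, with 14.9-fold and 9.27-fold H3K4me3 and 10.8-fold and 15.4-fold H3K27ac. ATAC-seq at the *Fgfr1* promoters was near the middle of the range, 11.7-fold and 11.8-fold.

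*Fgfr4*, a receptor tyrosine kinase known from regenerating muscle, had H3K27ac of 9.96-fold and 6.62-fold, H3K4me3 of 25.5-fold and 12.2-fold and ATAC-seq of 17.6-fold and 7.73-fold. Each was lower in replicate 2, as were the medians over all marked genes. The ATAC-seq values of *Fgfr4* come from peaks at different positions in the 2 replicates. *Fgfrl1*, which binds FGFs but lacks the kinase domain, had strong H3K4me3 of 29.4-fold and 28.5-fold beside the lowest H3K27ac of all marked members, 4.22-fold and 4.41-fold. *Fgfr3* had H3K4me3 of 19.2-fold and 14.8-fold with no H3K27ac peak. H3K27me3 of 3.08-fold was listed at *Fgfr3* in replicate 2 alone, with a −log10 q of 0.451, which does not reach a q-value of 0.05. The receptors thus ranged from broad acetylated promoters to H3K4me3 without acetylation.

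*Fgfr2*, known as a receptor of epithelial tissues, looked active by the gene-level count and not at its own start sites. GENCODE M21 gives it a transcript, *Fgfr2-217*, that starts 2.96 Mb from its 3′ end, within *Ctbp2*. The H3K27ac of 27.6-fold and 19.9-fold and the H3K4me3 of 43.9-fold and 29.8-fold were at that start, nearest to a TSS of *Ctbp2*. Around the main group of *Fgfr2* start sites H3K4me3 was 10.4-fold and 8.02-fold, H3K27me3 was 3.75-fold and 3.42-fold, and no H3K27ac peak was listed. Those H3K27me3 peaks did not overlap between replicates and had −log10 q-values of 0.934 and 0.957, which do not reach a q-value of 0.05. ATAC-seq at the same start sites was 20.7-fold and 15.7-fold, the highest among the receptors. Without *Fgfr2-217*, a choice made after these values were seen, 3 of 5 receptors had promoter H3K27ac and none of the receptor calls for the other features changed.

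Of the ligands, the mitogen *Fgf2* had H3K27ac of 6.13-fold and 7.72-fold and H3K4me3 of 22.3-fold and 16.8-fold at the first of its 4 promoter windows. ATAC-seq peaks of 14.3-fold and 15.2-fold lay at another *Fgf2* window that had no histone mark. *Fgf16*, a ligand studied mostly in heart and brown fat, had H3K27ac of 10.3-fold and 6.99-fold and H3K4me3 of 14.5-fold and 13.2-fold. Apart from *Fgf20*, *Fgf16* was the ligand with the highest H3K27ac in replicate 1 and *Fgf2* in replicate 2. The ATAC-seq peaks of *Fgf16* were weak, 5.20-fold and 4.70-fold, at percentile 4.56 and 3.88 among marked genes.

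The active marks listed for *Fgf20*, a ligand of the developing ear and brain, lay in a region shared with another gene. H3K27ac of 13.03-fold and 8.46-fold, H3K4me3 of 20.7-fold and 27.7-fold and ATAC-seq of 19.8-fold and 19.2-fold lay at the start of transcript *Fgf20-202*, in a window shared with *Micu3*. The summits of the H3K4me3 and ATAC-seq peaks in both replicates, and of H3K27ac in replicate 2, were nearer to the *Fgf20* TSS, and that of H3K27ac in replicate 1 was nearer to a TSS of *Micu3*. The other *Fgf20* start, that of *Fgf20-201*, had H3K27me3 of 4.50-fold and 3.76-fold, from peaks that did not overlap, and no peak of another feature. When a peak counted only for the gene of the TSS nearest to its summit, 3 ligands kept H3K27ac in both replicates, *Fgf20* and *Fgf11* being lost, beside 40.3% of all genes.

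The intracellular FGF homologous factors, which bind sodium channels rather than receptors, were marked without strong acetylation. *Fgf11* had H3K27ac of 4.98-fold and 4.78-fold, from narrow peaks of 208 bp and 220 bp that did not overlap, and the replicate 2 peak lay nearest to *Tmem102*. Its H3K27ac call was lost with promoters of 1 kb either side and with a −log10 q of at least 5. *Fgf13* had 2 windows with H3K4me3, one with 11.3-fold and 9.31-fold and H3K27ac of 5.37-fold and 5.15-fold, the other with 12.6-fold and 7.82-fold and no H3K27ac. *Fgf12* was the 1 member whose H3K27ac call differed between replicates, with 6.13-fold in replicate 1 and no peak in replicate 2. Its H3K4me3 was found in both replicates, 17.3-fold and 11.95-fold, at 3 of its 5 windows. *Fgf14* had ATAC-seq peaks in replicate 1 alone, the strongest 6.47-fold.

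H3K27me3 in both replicates was listed at 7 ligands, most of them known from embryonic patterning. The strongest peaks of the 2 replicates overlapped at *Fgf8* alone, so at the other ligands the paired values come from different positions. *Fgf8*, which directs growth of limb and brain, had 4.59-fold and 6.85-fold, the highest of the ligands in replicate 2, and its replicate 2 peak of 1685 bp had a −log10 q of 8.07, the only H3K27me3 promoter peak of a member above 5. *Fgf9*, a ligand of lung and gonad development, had 4.88-fold and 5.48-fold from 6 and 7 separate peaks and was the highest in replicate 1. *Fgf8* and *Fgf9* also had H3K4me3, of 11.5-fold and 7.82-fold and of 17.8-fold and 12.8-fold. *Fgf5*, a regulator of hair growth, had H3K27me3 of 4.13-fold and 3.42-fold with H3K4me3 of 9.83-fold and 10.4-fold. H3K27me3 of *Fgf17* was listed in replicate 2 alone, 4.11-fold, and that of *Fgf18* in replicate 1 alone, 3.38-fold.

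The number of these calls depended on the threshold of the list. With a q-value of at most 0.05 in both replicates, 5 of the 8 members remained marked, *Fgf3*, *Fgf5* and *Fgfr2* being lost, beside 3.24% of all genes. With a −log10 q of at least 5, 0 members remained, beside 0.4997% of all genes. The H3K4me3 of the bivalent ligands stood low among marked genes, from percentile 9.08 and 9.60 at *Fgf15* to 33.4 and 31.7 at *Fgf9*.

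*Fgf3*, *Fgf4* and *Fgf15* are neighbours within 62.9 kb at chr7:144838083-144900953, and this stretch had H3K27me3 at each gene and no H3K27ac peak. *Fgf3* and *Fgf4* are embryonic ligands, and *Fgf15* is the ileal hormone that restrains bile acid synthesis. The stretch held 9 and 11 H3K27me3 peaks of 2.68-fold to 4.26-fold and 3.42-fold to 4.79-fold. Of these, 4 and 9 had a q-value of at most 0.05. The *Fgf3* peaks of replicate 1 did not reach it, the highest −log10 q being 0.934. At *Fgf3* the strongest was 3.75-fold and 3.76-fold, at *Fgf4* 4.13-fold and 4.79-fold, and at *Fgf15* 4.26-fold and 4.45-fold. These strongest peaks did not overlap between replicates, but at each gene some peak of replicate 1 overlapped a peak of replicate 2. The single H3K4me3 peak of the stretch lay at *Fgf15*, 6.58-fold and 6.14-fold. ATAC-seq gave 5 peaks in replicate 1 and 1 in replicate 2, and the peak at *Fgf15* of 9.19-fold and 9.21-fold was the one found in both. *Fgf15* was thus the open and H3K4me3-marked gene of the 3.

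**Figure D4:**
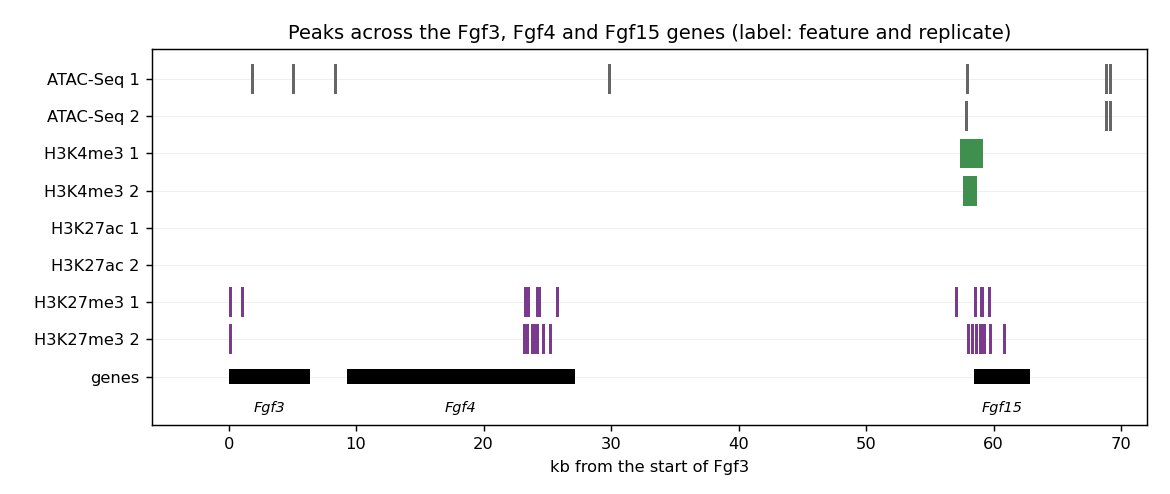
Peaks of the 8 libraries (rows) along the *Fgf3*, *Fgf4* and *Fgf15* genes (black bars), in kb from the start of *Fgf3*; narrow peaks are drawn at a minimum width. H3K27me3 peaks (9 in replicate 1 and 11 in replicate 2) gather at the start of *Fgf3*, at the downstream start of *Fgf4* and around the start of *Fgf15*, where the H3K4me3 peak lies. Of the H3K27me3 peaks, 4 and 9 had a q-value of at most 0.05.

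The promoter sequences of these members are shown to set the marks against their CpG content, since CpG-rich promoters are those that Polycomb and H3K4me3 commonly occupy. The bases before the start given by RefSeq (GRCm38.p6, which is mm10) are printed on the strand of the gene, with each CG in capitals. They are the promoters of members with H3K27me3 in both replicates, and that of *Spred1*, the feedback inhibitor whose lower replicate had the highest H3K27ac. *Fgf8*, *Fgf15* and *Fgf20* are named only.
Fgf3, chr7:144838362-144838594, + strand: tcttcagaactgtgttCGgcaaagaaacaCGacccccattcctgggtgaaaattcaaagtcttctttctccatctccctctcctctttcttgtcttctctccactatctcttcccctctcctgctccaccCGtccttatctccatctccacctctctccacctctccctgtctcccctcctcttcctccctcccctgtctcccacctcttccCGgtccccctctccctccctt
Fgf4, chr7:144861136-144861385, + strand: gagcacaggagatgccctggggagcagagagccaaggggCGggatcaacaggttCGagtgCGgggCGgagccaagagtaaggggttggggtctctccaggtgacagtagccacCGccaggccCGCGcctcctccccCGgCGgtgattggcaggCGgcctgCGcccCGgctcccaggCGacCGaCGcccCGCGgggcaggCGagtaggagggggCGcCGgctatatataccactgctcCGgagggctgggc
Fgf5, chr5:98253934-98254183, + strand: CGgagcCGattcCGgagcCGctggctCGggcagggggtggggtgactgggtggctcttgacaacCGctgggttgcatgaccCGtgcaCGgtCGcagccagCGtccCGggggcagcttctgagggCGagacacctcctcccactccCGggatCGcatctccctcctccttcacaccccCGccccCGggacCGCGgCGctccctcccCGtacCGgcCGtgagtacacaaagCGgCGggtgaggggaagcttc
Fgf9, chr14:58072436-58072685, + strand: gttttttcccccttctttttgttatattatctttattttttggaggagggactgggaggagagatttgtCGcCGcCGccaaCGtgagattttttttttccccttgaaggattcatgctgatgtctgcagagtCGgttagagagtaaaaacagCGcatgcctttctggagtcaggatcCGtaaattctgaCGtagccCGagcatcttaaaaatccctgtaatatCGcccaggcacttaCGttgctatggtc
Fgfr2, chr7:130266809-130267058, - strand: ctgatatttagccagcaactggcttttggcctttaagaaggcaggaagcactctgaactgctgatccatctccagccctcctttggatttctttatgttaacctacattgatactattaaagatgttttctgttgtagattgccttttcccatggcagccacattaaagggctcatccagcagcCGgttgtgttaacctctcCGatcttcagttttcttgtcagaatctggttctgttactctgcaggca
Spred1, chr2:117120821-117121070, + strand: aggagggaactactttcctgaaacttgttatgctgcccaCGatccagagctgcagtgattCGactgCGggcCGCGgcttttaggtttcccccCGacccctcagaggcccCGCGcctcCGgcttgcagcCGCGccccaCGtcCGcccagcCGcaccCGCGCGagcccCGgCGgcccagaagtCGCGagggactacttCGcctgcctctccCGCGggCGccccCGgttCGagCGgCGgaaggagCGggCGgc
The printed stretch of *Spred1* held 31 CG pairs, that of *Fgf5* 24 and that of *Fgf4* 21, all in 250 bases. *Fgf9* held 11 in a stretch rich in A and T, *Fgf3* held 4 in 233 bases, and *Fgfr2* held 2. The *Fgfr2* stretch lies upstream of the main group of annotated *Fgfr2* start sites. It does not overlap the strongest ATAC-seq peak there in replicate 1, chr7:130265958-130266516. Nor does it reach the strongest H3K27me3 peaks, chr7:130263628-130263802 and chr7:130264350-130264700, so the CpG content at these peaks was not counted. *Fgf3* thus had few CG pairs ahead of its RefSeq start, and its RefSeq promoter of 300 bases, which includes the 50 bases after the start, held 14. The first annotated TSS of *Fgf3* lies upstream of the printed stretch, at chr7:144838083, and the bases before that TSS were not counted.

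Over the RefSeq promoters that matched, 32 promoters of 25 members, the median ratio of observed to expected CpG was 0.737, beside 0.384 over all 32851 promoters of the table. That table holds 27025 genes, more than the 22015 protein-coding genes used elsewhere, so here and for the motifs below the background is another set. Its median GC content was 52.7%, against 63.2% for the members. The 9 members without a match were *Fgf1*, *Fgf8*, *Fgf15*, *Fgf16*, *Fgf17*, *Fgf20*, *Fgfr1*, *Spry3* and *Spry4*. Feedback inhibitors had a median of 0.935 over 5 promoters, ligands 0.736 over 22 and receptors 0.726 over 5. *Fgf3* and *Fgf4*, with H3K27me3 and no H3K4me3, had 0.748 and 0.774. RefSeq promoters of genes called with H3K4me3 and H3K27ac ranged from 0.187 to 1.03. That call is made per gene and does not hold for each promoter. The lowest value, 0.187, was that of an *Fgf13* promoter outside all *Fgf13* windows. Another *Fgf13* promoter, with 0.492, lay in a window without a peak. *Fgf6* and *Fgf14*, with no shared peak, had 0.441 and 0.4. Of 6 short motifs searched on both strands, GGGCGG, the GC box, was in 22 of the 32 promoters (68.8%), beside 35.7% of all promoters. CAGCTG was in 6 of 32 beside 16.3%, CCAAT in 10 beside 37.4%, TATAAA in 3 beside 13.6%, TGANTCA in 2 beside 7.81% and CCGGAAG in 1, *Fgfrl1*, beside 8.86%. Motifs were counted separately and may overlap, promoters of 1 gene are not independent, and a match is a run of letters, not a bound site.

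*Fgf1*, a ligand released from injured cells and active on all FGF receptors, had the strongest ATAC-seq promoter of the members and no histone mark peak at any of its 4 windows. ATAC-seq reached 23.8-fold and 21.5-fold, at percentile 94.0 and 93.9 among genes with a peak, and each of the 4 windows held a peak in both replicates. *Fgf7*, the keratinocyte growth factor, had ATAC-seq of 8.17-fold and 8.32-fold and *Fgf22* of 8.71-fold and 10.3-fold, also without histone marks. The hormone genes *Fgf21* and *Fgf23* had 5.45-fold and 5.31-fold and 5.79-fold and 5.86-fold. Open chromatin without histone peaks was thus found at 5 ligands, with *Fgf1* the highest of them in both replicates.

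H3K4me3 without acetylation was found at *Fgf10* and *Fgf18*, mesenchymal ligands of lung and bone. *Fgf10* had 8.79-fold and 6.81-fold over 1638 bp and 1388 bp, beside the weakest ATAC-seq of the members in replicate 1, 3.57-fold, and 6.47-fold in replicate 2. *Fgf18* had H3K4me3 of 11.7-fold and 8.03-fold and ATAC-seq of 10.2-fold and 12.8-fold. *Fgf6*, a ligand known for its expression in muscle, had no promoter or gene body peak in any of the 8 lists.

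Within gene bodies, outside the windows of the gene itself, ATAC-seq peaks in both replicates were found for 17 of 34 members, beside 30.7% of all genes. H3K4me3 was found for 7 beside 5.22%, H3K27ac for 5 beside 7.20% and H3K27me3 for 1 beside 1.16%. The single H3K27me3 gene was *Fgfr2*, through the long transcript: as annotated it held 25 and 27 H3K27me3 and 63 and 40 H3K27ac body peaks over 2961 kb, and without *Fgfr2-217* it held none of either over 103.8 kb. The H3K27ac body peak of *Fgf11*, 26.8-fold and 17.3-fold, lay 128 bp and 115 bp from a TSS of *Chrnb1*. Body peaks of a member need not belong to it, and longer genes have more room for them.

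Apart from *Fgfr2*, the most H3K27ac body peaks were in *Spred2* in replicate 1 and in *Fgfr1* in replicate 2. *Fgfr1* had 5 and 8 over 62.1 kb, and all 5 of replicate 1 overlapped peaks of replicate 2. The strongest lay 23.5 kb and 23.3 kb from the first TSS, with 9.02-fold and 7.36-fold, over ATAC-seq peaks of up to 16.8-fold and 15.04-fold. A second group lay 11.7 kb and 11.6 kb from the first TSS, with 6.95-fold and 7.36-fold. *Spred2* had 8 and 2 H3K27ac body peaks over 99.7 kb, and 15 and 12 ATAC-seq peaks. Both *Spred2* peaks of replicate 2 were found in replicate 1, at 67.2 kb from the first TSS with 7.28-fold and 5.62-fold, and at 62.7 kb and 62.6 kb with 5.59-fold and 3.38-fold. *Spry4* had a body H3K27ac peak in each replicate, 4.22-fold and 5.15-fold, and *Fgf16* and *Fgfr4* had 2 each in replicate 1 and 0 in replicate 2.

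**Figure D5:**
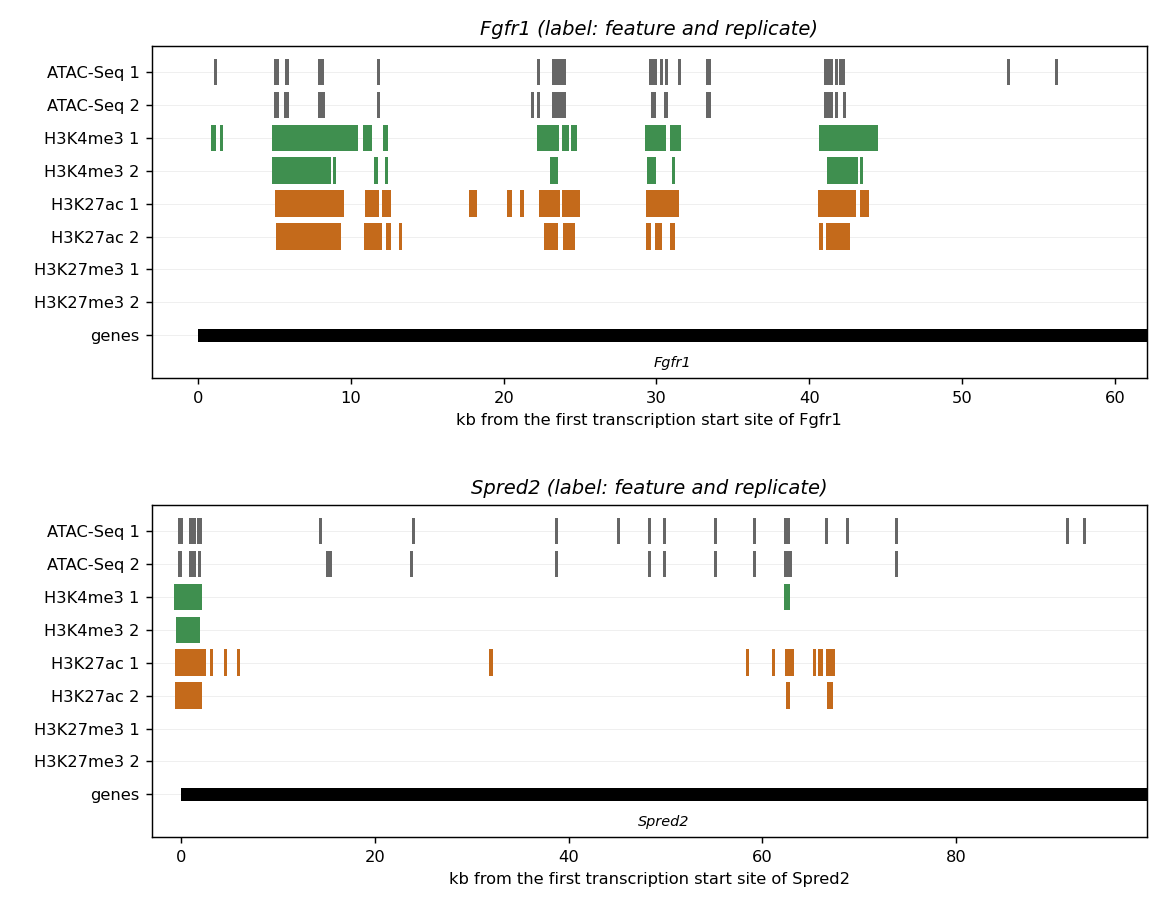
Peaks of the 8 libraries (rows) along *Fgfr1* and *Spred2*, in kb from the first TSS of each gene; the black bar is the gene, and narrow peaks are drawn at a minimum width. H3K27ac and ATAC-seq peaks recur in both replicates inside *Fgfr1*, as at 23.5 kb, and near 62.7 kb inside *Spred2*.

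Of the *Spred2* elements with H3K27ac in both replicates, the one at 62.7 kb also had ATAC-seq peaks in both. The 200 bases around the summit of its strongest ATAC-seq peak in replicate 1 are printed from the + strand, chr11:19986586-19986785. CAGCTG, an E-box, is in capitals.
Spred2 element: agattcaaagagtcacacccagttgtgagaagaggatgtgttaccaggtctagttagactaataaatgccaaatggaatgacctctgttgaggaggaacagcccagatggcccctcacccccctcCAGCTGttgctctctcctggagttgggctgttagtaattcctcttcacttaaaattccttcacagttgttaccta
The H3K27ac peaks span chr11:19986694-19987678 and chr11:19986773-19987247, so the summit lies just outside both and most of the stretch is their flank. The E-box lies outside the H3K27ac peak of replicate 2. In replicate 2 the strongest ATAC-seq peak of the element was another one, of 5.79-fold. The stretch overlaps no annotated exon and is intronic. It held 0 CG pairs, and CAGCTG was the only one of the 6 motifs in it, starting at base 126. E-boxes are the sites of myogenic factors such as MyoD. The same letters were in 22.3% of the 137470 windows of 200 bases around ATAC-seq summits of replicate 1 on chromosomes 1 to 19, so no weight is put on their presence here.

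Ligand bodies were mostly unmarked by histone peaks. *Fgf2* had 10 and 7 ATAC-seq body peaks over 61.8 kb, all 10 of replicate 1 overlapping replicate 2, and no histone peak. The long genes *Fgf12*, *Fgf13* and *Fgf14*, of 593, 506 and 699 kb, had 9 and 3, 11 and 3, and 7 and 1 ATAC-seq peaks. Isolated H3K4me3 peaks in both replicates lay inside *Fgf8* with 5.92-fold and 3.76-fold, *Fgf12* with 6.46-fold and 5.01-fold, *Fgf18* with 6.46-fold and 5.21-fold, and *Fgf23* with 5.38-fold and 5.81-fold. These were weaker than the strongest H3K4me3 promoter peak of every marked member in the same replicate, the weakest being 6.58-fold and 6.14-fold at *Fgf15*. Per 100 kb of summed gene length, H3K27ac body peaks numbered 3.22 for the feedback inhibitors, 1.92 for the receptors and 0.0856 for the ligands, beside 0.522 over all genes. The value of the feedback inhibitors rests on 10 peaks in replicate 1 and 3 in replicate 2, of which *Spred2* held 8 and 2, and that of the receptors on 70 and 48, of which *Fgfr2* as annotated held 63 and 40. The median over genes was 0 for feedback inhibitors and for ligands.

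Other genes of the pathway, 40 in a list of co-receptors, adaptors, kinases, targets and further inhibitors, were mostly marked by H3K4me3 and H3K27ac. ATAC-seq promoter peaks in both replicates were found for 39 (97.5%, beside 67.6% of all genes), H3K4me3 for 37 (92.5%, beside 60.6%), H3K27ac for 31 (77.5%, beside 46.5%) and H3K27me3 for 1 (2.5%, beside 4.79%). Of the 15 adaptors and kinases, 14 had H3K4me3 with H3K27ac, among them *Frs2*, the docking protein of the receptors, and *Grb2*, an adaptor that links receptors to RAS activation. The exception was *Map2k1*, with ATAC-seq peaks of 7.51-fold and 5.50-fold alone. Of 15 co-receptor and heparan sulfate genes, 10 had H3K27ac, including *Sdc4* and *Gpc1*, and *Kl*, *Sdc3*, *Gpc3* and *Gpc6* had H3K4me3 alone. *Klb*, the co-receptor that *Fgf15* and *Fgf21* require, had no promoter peak in any list. Of 10 targets and inhibitors, 7 had H3K4me3 with H3K27ac, including the MAP kinase phosphatase genes *Dusp4*, *Dusp5* and *Dusp6* and the target genes *Etv1* and *Etv5*. *Etv4*, a transcription factor gene induced by FGF, had H3K4me3 of 11.5-fold and 8.96-fold with H3K27me3 of 4.50-fold and 3.07-fold, and H3K27ac of 5.12-fold in replicate 1 alone. *Cbl*, a ubiquitin ligase gene, had ATAC-seq of 5.11-fold and 5.55-fold alone. The ATAC-seq peaks of *Map2k1* and *Cbl* lay at other annotated start sites: no list held a peak within 18.6 kb of the first TSS of *Map2k1* or within 5.58 kb of that of *Cbl*. Peak numbers ran without a gap in all 8 lists, but whether these starts were unmarked in the cells is not known, so neither gene is called unmarked.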

How the data were processed

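ATAC-seq and ChIP-seq peak lists of 8 libraries were used, 2 replicates for each of 4 features. According to the study's methods and the submitters' processing notes, the authors trimmed reads with Trim Galore 0.6.10, aligned them to mm10 with BWA 0.7.17-r1188, filtered reads of low mapping quality and duplicates (SAMtools 1.5), removed blacklisted regions (bedtools), shifted ATAC-seq reads for the Tn5 offset (deepTools 3.5.5) and called peaks per library with MACS2 2.2.6. The deposited lists give fold enrichment, a ratio at the peak summit, p-values and q-values as −log10, and a score that the authors' peak caller derived from them and that was not used. A fold enrichment is relative to the background of the peak caller and is compared between replicates without further scaling. The series holds an input library labelled for H3K27me3 and H3K4me3 and another labelled for H3K27ac. The settings of the peak caller, and whether it used these inputs, are not given in the sources used here.

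Peaks were overlapped, from 1 bp, with the 3.0 kb either side of every annotated TSS of each protein-coding gene in GENCODE M21 (mm10), and with gene bodies outside those windows (Python 3.11.15, pandas 2.3.3). A gene counted as marked with a peak in both replicates. Medians and percentiles are over all genes with a promoter peak in that library. The overlap code was tested on simulated intervals. No statistical test was made, since the members, gene lists and markers were chosen with earlier results of these data known. Values are given for members with H3K27ac in both replicates, with H3K27me3 in either replicate, with a call that differed between replicates, or among the 5 with most H3K27ac body peaks, and for pathway genes with H3K27me3 or without H3K4me3. Further values named were chosen after they were seen. Promoter sequences and CpG ratios came from RefSeq (GRCm38.p6), matched by symbol for 25 of 34 members, and 28 of 28 member promoters compared with the genome were identical to it. Printed promoters were cut where an annotated exon began. Editing outcomes and the other samples of the series were not analysed here.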

Additional observations from a re-analysis of the deposited data

How the results depend on the processing

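Counts of members with ATAC-seq or H3K4me3 promoter peaks stayed within 1.5 times under every alternative tried, all and by role. For H3K27ac this also held, except that 3 ligands were counted where a peak belonged to its nearest TSS. H3K27me3 was the feature that moved. With a −log10 q of at least 5, 0 members, 0 ligands and 0 receptors were counted. With a q-value of at most 0.05 there were 5 members and 0 receptors, and with the same number of top peaks in both replicates 4 members, 4 ligands and 0 receptors. With 1 replicate left out, H3K27me3 counts ranged from 9 to 11 members, 1 to 2 receptors and 0 to 1 feedback inhibitors. Gene body counts then ranged from 5 to 8 for H3K27ac and from 2 to 4 for H3K27me3, against 5 and 1 in both replicates. Leaving out the transcript *Fgfr2-217*, an alternative chosen after seeing the data, gave 0 members with H3K27me3 body peaks. No paired analysis was possible because no result comes from a test. The cause of these shifts was not tested, beyond the fewer peaks each stricter list holds. Unknown depth limits every absent peak, which says only that none was listed.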

Other observations

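Leaving aside the long *Fgfr2* transcript, the highest ATAC-seq folds of any member were body peaks in replicate 1 that had no counterpart in replicate 2. They were 84.0-fold in *Fgf13*, 78.0-fold in *Fgf14* and 55.9-fold in *Fgf10*, from peaks of 157 bp, 115 bp and 126 bp. The strongest ATAC-seq promoter peak of the members in replicate 1, at *Fgf1*, was 23.8-fold. *Fgf10* thus had a gene body ATAC-seq peak in 1 library alone, and *Fgf13* and *Fgf14* had 3 and 1 weaker ones in replicate 2. Whether these peaks come from the cells or from the library was not tested.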
